A study of Mus musculus with 32 samples.

Results

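Hyaluronan is a long, unbranched sugar polymer of the extracellular matrix, and the genes described here make it, bind it and cut it. The 7 genes are named by symbol: the synthases Has1, Has2 and Has3, the hyaluronidases Hyal1 and Hyal2, the hyaluronan-binding and depolymerising protein Cemip, and the receptor Cd44. They are 7 of the 55401 gene identifiers in the count files, and all 7 were among the 15546 genes tested.

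RNA was sequenced from the dorsal epidermis of 32 mice, 1 library per mouse, separated from the dermis with ammonium thiocyanate. All mice were hairless animals of a mixed SKH-1/SV129/BL6/J background, aged 10 to 14 weeks. WT mice and littermates deficient for PPARbeta (Ppard-/-, labelled KO) were either sham-manipulated without UV (control) or irradiated once on the back at 120 mJ/cm2, mostly UVB, and sampled 24 h later. The labels put the controls at time 0. Each combination of genotype, treatment and sex held 4 mice, so that each genotype and treatment held 8. The labels give neither how the allele was made nor the litters, and gene-level reads were counted over the whole gene.

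In the skin, hyaluronan fills the space between keratinocytes of the living epidermal layers, holds water and is turned over quickly. The synthases sit in the plasma membrane and extrude the chain while they build it from UDP-glucuronic acid and UDP-N-acetylglucosamine. CD44 anchors the polymer at the cell surface, CEMIP and HYAL2 start its breakdown into shorter chains at or outside the cell, and HYAL1 cuts these further in the lysosome. PPARβ/δ, the product of Ppard, is a nuclear receptor that binds DNA with RXR and is activated by fatty acids.

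Each library held 22919428 to 40653581 reads on genes, and levels are given as cpm, the reads of a gene scaled to a common library size by TMM. Ppard itself was lower in KO mice but was not lost: it read 87.3 to 105 cpm in WT controls, 70.3 to 88.9 cpm in KO controls, 252 to 326 cpm in UV-exposed WT mice and 175 to 239 cpm in UV-exposed KO mice. The groups did not overlap in UV and overlapped slightly in controls. The KO difference was -0.42 (SE 0.068) on the log2 scale in UV (adjusted P = 0.0011) and -0.26 (SE 0.068) in controls (adjusted P = 0.156). The KO female labelled 54F stood apart after UV, with 2093 cpm summed over 8 fibroblast markers where the other 7 UV-exposed KO mice had at most 47.8 cpm, and 1288 cpm over the macrophage and monocyte markers where the others had at most 299 cpm. Values from UV-exposed KO mice are therefore also given without it where they moved most.

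The synthases lie apart in the mouse genome. On GRCm38, with GENCODE M21 gene spans, Has1 is at chr17:17843323-17855205 (- strand), Has2 at chr15:56665627-56694539 (- strand) and Has3 at chr8:106870242-106884566 (+ strand). Cemip is at chr7:83932857-84086502 (- strand) and Cd44 at chr2:102811141-102901665 (- strand). Hyal2 at chr9:107567945-107572779 (+ strand) and Hyal1 at chr9:107576927-107581710 (+ strand) are neighbours, separated by 4147 bases.

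RefSeq start-site windows were held for 5 of the 7 genes, Has1, Hyal1, Hyal2, Cemip and Cd44, and the 250 bases before each start were searched on both strands. The search covered the AP-1 sites TGACTCA and TGAGTCA, the cAMP response element TGACGTCA, the site AGGTCA alone and as a pair 1 base apart (the PPAR response element), the E-box CACGTG and the NF-kB core. The Has1 window was the only one of the 5 with any match. It is shown here with its matches in capitals, a palindromic TGACGTCA from 83 to 76 bases before the start and an AGGTCA on the opposite strand from 113 to 108 bases before it (GRCm38.p6, chr17:17855189-17855438, - strand, 5′ to 3′). The window of Hyal1, the gene that differed most clearly between genotypes, is shown beneath it and holds no match (chr9:107576700-107576949, + strand).
Has1: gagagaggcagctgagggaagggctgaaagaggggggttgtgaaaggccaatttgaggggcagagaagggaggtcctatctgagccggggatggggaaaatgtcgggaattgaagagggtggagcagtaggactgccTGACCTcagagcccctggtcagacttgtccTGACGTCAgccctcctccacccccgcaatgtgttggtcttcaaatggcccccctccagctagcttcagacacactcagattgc
Hyal1: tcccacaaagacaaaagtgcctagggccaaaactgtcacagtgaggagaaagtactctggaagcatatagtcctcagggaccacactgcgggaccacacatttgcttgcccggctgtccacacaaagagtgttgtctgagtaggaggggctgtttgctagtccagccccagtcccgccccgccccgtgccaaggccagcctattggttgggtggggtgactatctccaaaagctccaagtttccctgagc
Among all 32851 windows of this length, TGACGTCA was found in 1.55%, AGGTCA in 14%, either AP-1 site in 4.46%, the E-box in 6.02%, the NF-kB core in 0.14% and the PPAR response element in 0.0335%. These are letter matches, not measured binding, and the window does not cover distant enhancers.

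The genes differed widely in level. Scaled by exon length, Cd44 had the highest median in WT controls at 51.6 cpm per kb, followed by Hyal2 at 10.1, Hyal1 at 6.72, Has3 at 4.19, Cemip at 1.79, Has2 at 0.189 and Has1 at 0.0384 cpm per kb. Hyal1 overlapped with Has3 and Has3 overlapped with Cemip in the single mice, and the other neighbours in this order did not overlap. In KO controls the order of the medians was the same, and there Hyal2 overlapped with Hyal1 and Has2 with Has1 as well. Hyal1 overlaps Naa80 by 2824 bases and Hyal3 by 893 bases on the same strand. Ambiguous reads were left out, so the level of Hyal1 may be understated here and after UV.

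After UV the order changed, with Has3 above both hyaluronidases. In UV-exposed WT mice the medians were 115 cpm per kb for Cd44, 30.02 for Has3, 19.6 for Hyal1, 16.9 for Hyal2, 10.0 for Has2, 6.08 for Cemip and 0.270 for Has1. Has3 overlapped with Hyal1, Hyal1 with Hyal2 and Has2 with Cemip in the single mice. In UV-exposed KO mice Hyal2, at a median of 15.6 cpm per kb, stood above Hyal1, at 13.1 cpm per kb, and the 2 overlapped.

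**Figure D1:**
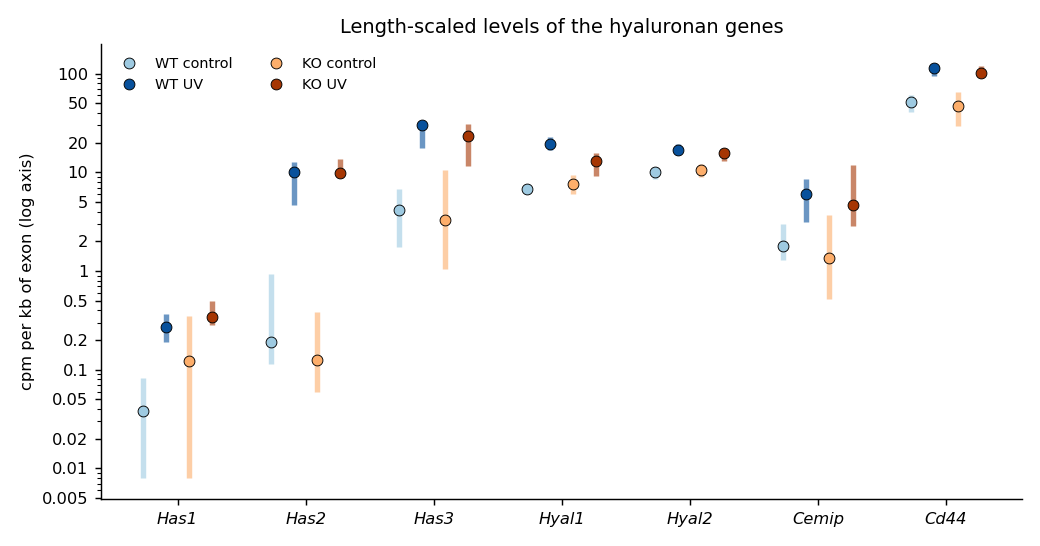
Level of each gene in cpm per kb of exon (log axis) in the 4 combinations of genotype and treatment, with 8 mice each; points are medians and bars run from the lowest to the highest mouse. Cd44 is highest throughout, and Has2 moves from 0.189 to 10.0 cpm per kb in WT mice.

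The first comparison asked how a single UV exposure changed these genes in WT epidermis. All 7 genes rose at 24 h, and for all 7 every UV-exposed WT mouse was above every WT control. Of all genes tested, 34.5% were called higher (adjusted P under 0.05), 71% were called in either direction and 21.3% were higher with no overlap. The median log2 fold change of the 7 genes was 1.68, and that of all genes tested was -0.01. The epidermis is a mixed tissue, and a change in how many cells of a type are present cannot be told apart from a change in RNA per cell.

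Has2, the synthase usually linked to inducible hyaluronan production and to repair, rose most. Its level was 0.48 cpm in the lowest WT control, 0.80 in the median and 3.98 in the highest, against 19.9, 42.5 and 54.2 cpm after UV. The highest control was the male 43M and the lowest irradiated mouse the female 57F, and they were still clearly apart. The difference was 5.23 on the log2 scale (SE 0.38, 37.6-fold, adjusted P = 1.18e-12 by edgeR's quasi-likelihood test, used throughout).

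Has2os, the antisense transcript whose span overlaps Has2 by 4596 bases on the opposite strand, rose as well, by 4.06 on the log2 scale in WT (SE 0.66, adjusted P = 4.18e-06) and by 4.33 in KO (SE 0.71, adjusted P = 4.14e-06). The rise was 5.23 in WT without the control male 43M and 5.10 in KO without the control male 52M. Its level was low, with a median of 0.87 cpm in UV-exposed WT mice. The libraries were strand-specific, but whether reads were counted by strand is not given in the sources used here, so part of either value may come from the other gene.

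Has3, the synthase with the highest level in these libraries, carried most of the synthase RNA before and after UV. Its 3′ end overlaps that of Chtf8, a gene on the opposite strand that was too low to be tested, by 704 bases. The WT control values of Has3 were 11.2 cpm in the lowest mouse, 26.7 in the median and 43.4 in the highest, and its UV values were 113, 192 and 213 cpm. All irradiated WT mice were therefore well above the highest control. The difference was 2.76 on the log2 scale (SE 0.39, 6.80-fold, adjusted P = 4.81e-07).

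Has1, the remaining synthase, was near the limit of detection in WT controls, with 1 to 10 reads per mouse. It measured 0.037 cpm in the lowest, 0.17 in the median and 0.37 in the highest WT control, and 0.87, 1.22 and 1.66 cpm after UV. The groups were separate, and the difference was 2.67 on the log2 scale (SE 0.45, 6.37-fold, adjusted P = 7.59e-06). Even after UV it remained the lowest of the 3 synthases by a wide margin.

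The make-up of the synthase RNA therefore shifted. Summed over the 3 genes, synthase RNA in WT mice was 1.91 to 6.97 cpm per kb in controls and 22.8 to 46.3 after UV. The share of Has2 in this sum was 1.78% to 14.3% in WT controls (median 5.79%) and 19.0% to 31.9% after UV (median 24.7%), while the share of Has3 went from a median of 92.6% to 74.7%. In KO mice the Has2 share went from a median of 3.27% (2.01% to 6.83%) to 30.4% (24.4% to 48.9%). The Has2 shares of control and irradiated mice did not overlap in either genotype.

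The hyaluronidases rose less, but with little spread between mice. Hyal1, the lysosomal enzyme, was 24.0 cpm in the lowest, 25.4 in the median and 28.9 in the highest WT control, and 64.3, 73.9 and 86.4 cpm after UV. Every irradiated WT mouse was above every control by a wide margin. The difference was 1.52 on the log2 scale (SE 0.098, 2.86-fold, adjusted P = 1.16e-13).

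Hyal2, the membrane-anchored enzyme that makes the initial cuts, was 28.3, 33.4 and 37.4 cpm in the lowest, median and highest WT control and 49.8, 55.6 and 63.1 cpm after UV. It had the smallest change of the 7, 0.79 on the log2 scale (SE 0.072, 1.72-fold, adjusted P = 1.56e-10). The groups were still fully separate.

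Cemip, which binds hyaluronan and is needed for its breakdown outside the cell, measured 15.99 cpm in the lowest, 21.9 in the median and 36.6 in the highest WT control, and 38.3, 74.3 and 105 cpm after UV. The lowest irradiated mouse, the male 38M, was only just above the highest control. The difference was 1.68 on the log2 scale (SE 0.28, 3.20-fold, adjusted P = 6.74e-06).

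Cd44, the principal hyaluronan receptor of keratinocytes, was already abundant. Its values were 278, 350 and 411 cpm in the lowest, median and highest WT control and 634, 779 and 834 cpm after UV, with no overlap. The difference was 1.12 on the log2 scale (SE 0.11, 2.17-fold, adjusted P = 4.51e-10).

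**Figure D2:**
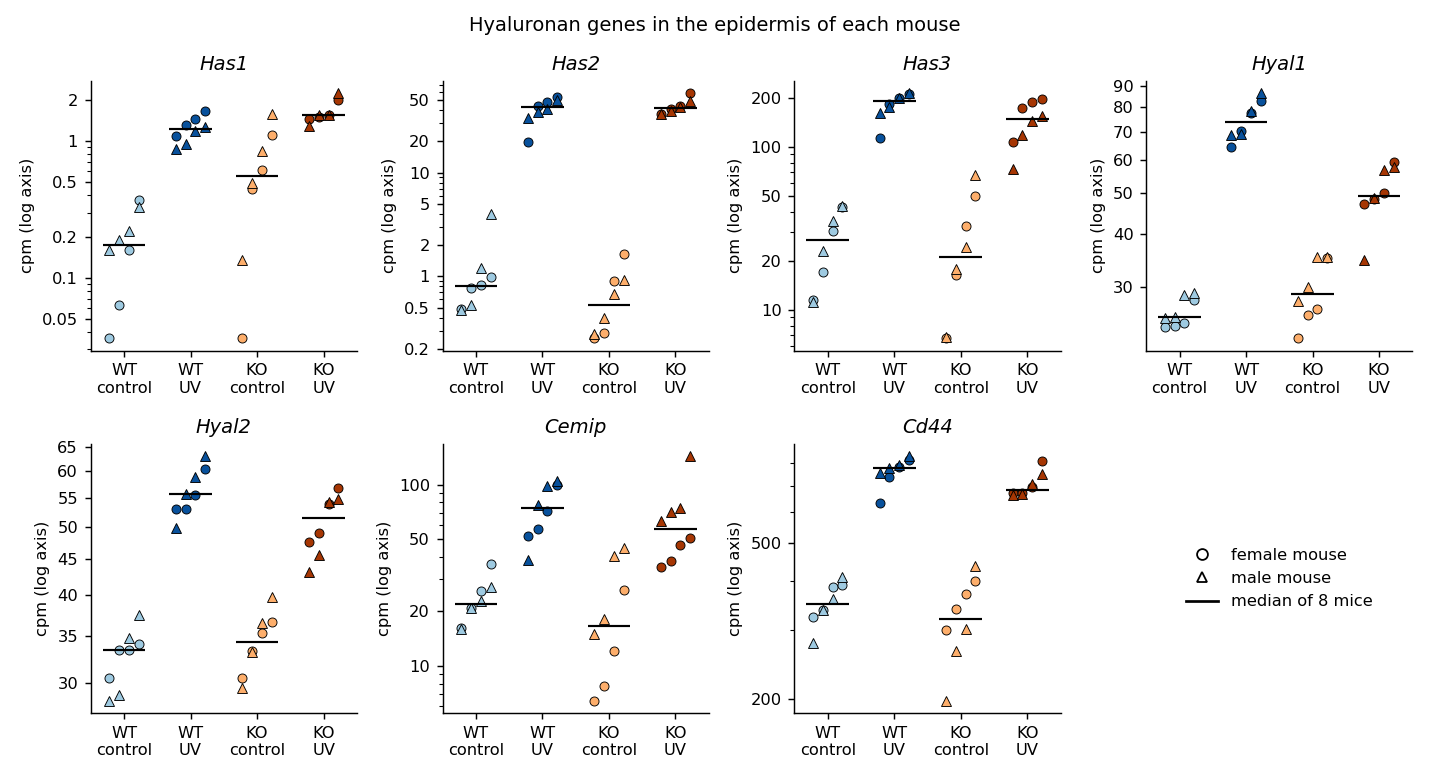
Level of each gene in cpm (log axis) in every mouse, by genotype and treatment; circles are females, triangles are males and the line is the median of 8 mice. All 7 genes are higher after UV, Hyal1 is lower in UV-exposed KO than in UV-exposed WT mice, and Has1 spreads from 0.036 to 1.58 cpm in KO controls.

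The same exposure in KO mice asked whether these genes also respond in mice deficient for PPARbeta. All 7 genes rose again, where 37.3% of all genes tested were called higher and 70.8% were called in either direction. The median log2 fold change of the 7 was 1.35, against 0.09 for all genes tested. Without 54F all 7 were also called higher.

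For Has2, Has3, Hyal2 and Cd44 every irradiated KO mouse was above every KO control, and 18.6% of all genes tested showed such a separation. Has2 went from 0.25, 0.53 and 1.63 cpm (lowest, median, highest) to 36.7, 42.0 and 58.3 cpm, a difference of 6.03 on the log2 scale (SE 0.40, 65.4-fold, adjusted P = 2.17e-13). Has3 went from 6.69, 21.2 and 66.9 cpm to 73.4, 149 and 196 cpm, a difference of 2.37 (SE 0.39, 5.15-fold, adjusted P = 4.53e-06). The KO controls were more spread than the WT controls for Has3, with a 10.0-fold range between mice against 3.89-fold.

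Hyal2 went from 29.5, 34.3 and 39.7 cpm to 43.1, 51.5 and 56.7 cpm in KO mice, a log2 difference of 0.56 (SE 0.072, 1.47-fold, adjusted P = 9.04e-08). Cd44 went from 198, 320 and 438 cpm to 662, 683 and 810 cpm, a log2 difference of 1.11 (SE 0.11, 2.16-fold, adjusted P = 5.14e-10). The Cd44 response was thus nearly the same size as in WT mice.

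Has1, Hyal1 and Cemip overlapped between KO controls and irradiated KO mice. Has1 went from 0.036, 0.55 and 1.58 cpm to 1.30, 1.55 and 2.24 cpm, a log2 difference of 1.35 (SE 0.42, 2.54-fold, adjusted P = 0.00532). Its control values reached into the UV range in 1 mouse, the male 52M.

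Cemip went from 6.40, 16.6 and 44.7 cpm to 35.3, 56.7 and 144 cpm in KO mice, a log2 difference of 1.63 (SE 0.28, 3.10-fold, adjusted P = 1.09e-05). Hyal1 went from 22.6, 28.8 and 35.3 cpm to 34.7, 49.4 and 59.2 cpm, a log2 difference of 0.76 (SE 0.096, 1.69-fold, adjusted P = 6.71e-08). Its overlap came from a single irradiated male, 72M, which was the lowest of its group.

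**Figure D3:**
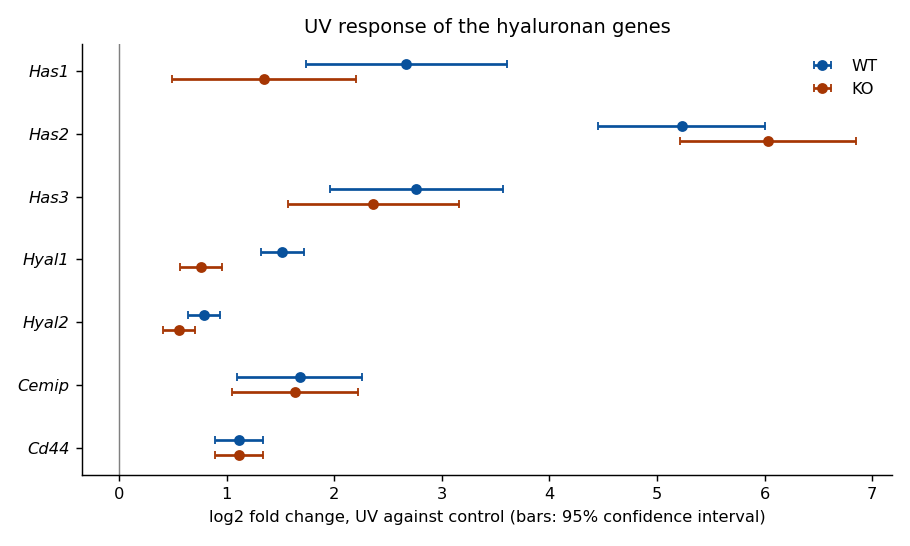
Log2 fold change of UV against control for each gene in WT (blue) and KO (brown) mice, with 95% confidence intervals from edgeR. All intervals lie above 0, and those of Hyal1 do not overlap between genotypes (1.52 in WT, 0.76 in KO).

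The KO and WT mice were then compared at each condition, and their UV responses were compared with each other, to ask where the genotype mattered. Hyal1 was the 1 gene of the 7 that edgeR called with all mice. In UV, 1 of 7 genes was called, where 3.31% of all genes tested were called. There 2 of the 7 had an unadjusted p under 0.05 (Hyal1 and Hyal2), and so had 3121 of all 15546 genes. In controls none of the 7 was called by edgeR, where 0.206% of all genes were, although 1 of the 7 had an unadjusted p under 0.05 (Has1). In the genotype-by-UV interaction, which tests the difference between both UV responses, 1 of 7 was called against 0.765% of all genes. In it 3 of the 7 had an unadjusted p under 0.05 (Has1, Hyal1 and Hyal2), and so had 3042 of all 15546 genes.

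Hyal1 was lower in every UV-exposed KO mouse than in every UV-exposed WT mouse. The WT females read 82.7, 70.2, 64.3 and 77.6 cpm and the WT males 68.98, 68.8, 78.6 and 86.4 cpm. The KO females read 59.2, 48.4, 47.1 and 50.04 cpm and the KO males 48.7, 56.9, 57.6 and 34.7 cpm. Of all genes tested, 0.187% were separated in this way between the genotypes in UV.

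The difference was -0.57 on the log2 scale (95% confidence interval -0.77 to -0.37, 1.48-fold lower in KO, adjusted P = 0.00211). In controls the difference was 0.18 in the other direction (interval -0.01 to 0.38, adjusted P = 0.611) and the groups overlapped. None of the 7 genes was separated between KO and WT controls, where 0.103% of all genes were. The interaction for Hyal1 was -0.75 (interval -1.03 to -0.48, adjusted P = 0.00735). Taken by sex, the UV difference was -0.58 in females (adjusted P = 0.017) and -0.62 in males (adjusted P = 0.207).

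Fibroblast markers also differed between the genotypes in UV. They summed to 22.7 cpm or more in every UV-exposed KO mouse and to at most 19.9 cpm in UV-exposed WT mice, and 7 of 8 were called higher in KO. Without 54F 0 of the 8 were called, with 7 at an unadjusted p under 0.05, while the Hyal1 difference was -0.57 (adjusted P = 0.00389). Without 54F other lists also held markers at an unadjusted p under 0.05 by edgeR, though none was called. They included 6 of 6 sebocyte, 4 of 7 T cell and 3 of 5 endothelial markers. Also among them were 3 of 6 Langerhans cell and 2 of 3 lymphatic endothelial markers. Sebocyte markers summed to a median of 709 cpm in KO UV and 363 cpm in WT UV. The part of any of these cells in the Hyal1 difference was not tested.

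Neighbours of Hyal1 overlap it in their annotated spans. Naa80, an N-acetyltransferase gene on the same strand, overlaps Hyal1 by 2824 bases and was also lower in UV-exposed KO mice, by -0.45 on the log2 scale (SE 0.11, adjusted P = 0.0214), with an interaction of -0.53 (SE 0.15, adjusted P = 0.0781). Hyal3, which overlaps Hyal1 by 893 bases, differed by -0.18 (SE 0.28, adjusted P = 0.785) in the same comparison at a level near 1 cpm. Without the WT female 51F the Naa80 difference was no longer called (adjusted P = 0.0617), and without 43M, 52M or 59F its interaction was. The difference was also not called in males alone (adjusted P = 0.745) or without the 9 mice over 1000 cpm of skeletal muscle markers (adjusted P = 0.196), and DESeq2 called the interaction (-0.57, adjusted P = 0.0155). Reads that could not be assigned to a single gene were left out as ambiguous. How far Hyal1 and Naa80 share this difference was not tested.

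Hyal2, its other neighbour, was 49.8 to 63.1 cpm in UV-exposed WT and 43.1 to 56.7 cpm in UV-exposed KO mice. The difference was -0.15 (interval -0.30 to -0.004, adjusted P = 0.237) and the groups overlapped. In controls the Hyal2 difference was 0.08 (interval -0.07 to 0.22). Its interaction was -0.23 (interval -0.43 to -0.02, adjusted P = 0.218). The ratio of Hyal1 to Hyal2 cpm, which cancels library size, was 1.16 to 1.47 in UV-exposed WT mice and 0.634 to 1.32 in UV-exposed KO mice, and these ranges overlapped. In controls it was 0.710 to 0.901 in WT and 0.679 to 1.01 in KO.

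Has1 leaned the other way in unexposed epidermis. It was 0.037 to 0.37 cpm in WT controls, and KO controls read 0.036, 0.61, 0.45 and 1.10 cpm in females and 0.84, 0.50, 1.58 and 0.13 cpm in males. In all, 6 KO controls were above the highest WT control. The difference of 1.76 on the log2 scale (interval 0.83 to 2.69) did not pass after adjustment (adjusted P = 0.152) in the main test, and it did in DESeq2 (1.798, adjusted P = 0.018). It was also called without the KO female 44F (1.95, adjusted P = 0.028) or the WT female 71F (2.18, adjusted P = 0.0457). These values rest on 1 to 36 reads per mouse.

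Has1 lies on the same chromosome as Ppard, 10.4 Mb away. Of the 32 genes called between KO and WT controls, 13 were on chromosome 17, which holds 4.88% of the genes tested. Whether the sequence around the targeted gene differs between the genotypes was not tested.

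In UV the Has1 difference was 0.44 (interval -0.39 to 1.26, adjusted P = 0.587), and its interaction was -1.32 (interval -2.56 to -0.09, adjusted P = 0.224). For Has2 the KO difference was -0.72 in controls (interval -1.53 to 0.09) and 0.08 in UV (interval -0.54 to 0.70). For Has3 it was 0.05 in controls (interval -0.71 to 0.81) and -0.35 in UV (interval -1.10 to 0.40). None of these passed, and the intervals for the synthases were wider than those for the hyaluronidases.

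For Cemip the KO difference was -0.24 in controls (interval -0.82 to 0.33) and -0.29 in UV (interval -0.85 to 0.28). For Cd44 it was -0.12 in controls (interval -0.34 to 0.10) and -0.12 in UV (interval -0.34 to 0.10). The Cd44 interaction was -0.003 (interval -0.31 to 0.31), so a difference between the UV responses larger than 0.31 on the log2 scale lies outside its interval.

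**Figure D4:**
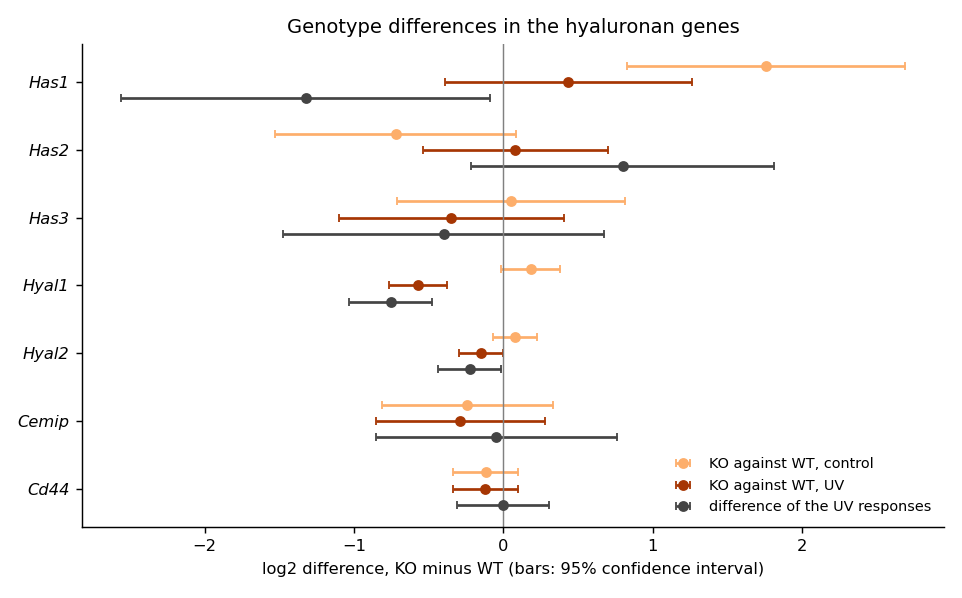
Log2 difference of KO minus WT in controls, in UV and between the UV responses for each gene, with 95% confidence intervals from edgeR. Hyal1 has a difference of -0.57 in UV and of -0.75 between the responses, and Has1 has one of 1.76 in controls on few reads.

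The sexes were compared because the study set out to compare male and female skin. None of the 7 genes was called between females and males in controls, where edgeR called 6.86% of all genes, and none had an unadjusted p under 0.05. None was called for a different UV response by sex, by edgeR or by DESeq2, and none of the 7 had an unadjusted p under 0.05. In that comparison edgeR called 0% of all genes, and 1091 of the 15546 had an unadjusted p under 0.05. The largest sex difference in controls among the 7 was that of Cemip, -0.49 on the log2 scale (interval -1.07 to 0.08, adjusted P = 0.278). The intervals for Has1 were wider, -1.41 to 0.44 in controls and -0.59 to 1.89 for the UV response by sex, and leave room for sizeable differences.

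Cemip was examined further after its values were seen, since the UV-exposed KO mice divided by sex. UV-exposed KO females read 46.2, 35.3, 37.7 and 50.8 cpm and UV-exposed KO males 74.3, 144, 71.02 and 62.7 cpm, with no overlap. The share of all genes tested that separate in this way between so few mice was not counted. The separation therefore cannot show whether Cemip stands out from other genes. UV-exposed WT females read 99.4, 71.4, 51.9 and 56.6 cpm and WT males 105, 38.3, 97.9 and 77.3 cpm, with overlap. The genotype-by-sex interaction over both treatments was -1.12 on the log2 scale (interval -1.93 to -0.31), it did not pass after adjustment (adjusted P = 0.215), and 0% of all genes passed in edgeR, with 2225 of them at an unadjusted p under 0.05.

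The other genes of the pathway were taken from a list of 39, of which 23 were tested. In WT mice 13 rose and 7 fell after UV (20 of 23 called, against 71% of all genes), and in KO mice 14 rose and 4 fell (18 of 23 called, against 70.8%). Their median log2 fold change was 0.66 in WT and 1.08 in KO. Without 54F, 21 were tested and 12 rose and 4 fell in KO mice.

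Among the enzymes that supply the UDP-sugars, those leading to UDP-N-acetylglucosamine rose. Gfpt1, the entry enzyme of the hexosamine pathway, was 16.8 to 22.7 cpm in WT controls and 75.7 to 99.4 cpm after UV, a log2 difference of 2.13 (SE 0.083, adjusted P = 7.03e-18). It rose by 2.20 (SE 0.084) in KO mice. Its paralogue Gfpt2 rose from a low level, by 3.62 in WT (SE 0.63) and 3.54 in KO (SE 0.59), where it was 2.82 without 54F. In WT it was 4.40 without the control male 56M.

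The later steps of that branch moved in the same direction. Gnpnat1 rose by 1.13 in WT and 1.34 in KO on the log2 scale, Pgm3 by 1.04 and 1.08, and Uap1l1, a relative of the pyrophosphorylase Uap1, by 0.66 and 1.25. Uap1 itself rose by 0.82 and 0.84. In contrast Ugp2, which makes UDP-glucose, was lower by -0.42 in WT and -0.32 in KO, and Ugdh, which oxidises it to UDP-glucuronic acid, by -0.50 in WT (adjusted P = 0.00719), with a value of 0.32 in KO that did not pass (adjusted P = 0.0809). Without 54F the KO values were -0.41 for Ugp2 and 0.19 for Ugdh. Uap1, Ugp2 and Ugdh were below the 2-fold limit set for naming and were added after their values were seen. Without 60F Ugp2 was not called in KO (adjusted P = 0.0696), nor was it with library size only (adjusted P = 0.0584). In females alone Ugp2 was called neither in WT (-0.40, adjusted P = 0.0937) nor in KO (-0.19, adjusted P = 0.424). In males alone Ugdh was not called in WT (-0.29, adjusted P = 0.178). Ugdh was called higher in KO without 52F or 74F (0.40, adjusted P = 0.027, and 0.36, adjusted P = 0.0461) and in females alone (0.64, adjusted P = 0.0363).

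Of the further hyaluronidase family, Hyal3 rose by 1.77 in WT and 1.90 in KO on the log2 scale, while Hyal4, which acts mainly on chondroitin sulfate, fell by 1.05 in WT and by 1.30 in KO. Hyal4 was 9.12 to 25.2 cpm in WT controls and 5.16 to 14.3 cpm after UV. The family members thus did not move together.

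The receptors Lyve1 and Stab1, found on cells other than keratinocytes, rose as well, and Hmmr did not. Hmmr changed by -0.86 on the log2 scale in WT (adjusted P = 0.0036). Its value of -0.36 in KO did not pass (adjusted P = 0.204). Layn had a median of 0 cpm in WT controls, UV-exposed WT mice and KO controls, and it was not tested without 54F. Its values of -0.29 in WT and -0.95 in KO were not called. They rest on almost no reads and cannot show whether it responds. Hmmr and Layn did not meet the rule for naming and were added after their values were seen. Lyve1, a receptor of lymphatic endothelium and some macrophages, was 0.073 to 1.43 cpm in WT controls and 4.05 to 31.6 cpm after UV, a log2 difference of 4.15 (SE 0.68) in WT and 6.52 (SE 0.75) in KO. The WT value was 3.53 without the irradiated female 51F and 4.80 without the control female 61F, and the KO value was 5.98 without 54F, which had 158 cpm where the other irradiated KO mice had at most 58.5, and 7.48 without the control male 52M. Stab1, a scavenger receptor of macrophages and endothelium, rose by 1.63 in WT and 1.804 in KO, or 1.63 without 54F. Markers of such cells changed too. Of 7 macrophage and monocyte markers, 4 rose and 1 fell in WT, and 5 rose in KO. Their summed level went from 43.8 to 102 cpm in WT controls to 109 to 190 cpm in WT UV. Of the 3 lymphatic endothelial markers tested, 1 rose in WT and 3 in KO. The part of these cells in the result was not tested.

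Of the matrix partners, Hapln3, a link protein that ties hyaluronan to proteoglycans, rose by 2.34 in WT and 2.85 in KO on the log2 scale. Vcan, a large proteoglycan that binds hyaluronan, rose by 1.05 in WT (adjusted P = 0.0373) and 1.94 in KO, or 1.65 without 54F. The WT value of Vcan fell to 0.76 without the female 77F (adjusted P = 0.136) and was not called without any of several other mice. Itih5, a heavy chain of the inter-alpha-trypsin inhibitor family, was 6.15 to 20.9 cpm in WT controls and 0.15 to 0.51 cpm after UV, and fell by 5.17 on the log2 scale (SE 0.90).

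In KO mice Itih5 fell by 2.42 with all mice and by 5.39 without 54F, which had 97.4 cpm where the other 7 irradiated KO mice had 0.066 to 0.58 cpm. Fibroblast markers moved with it: their summed level was 81.6 to 175 cpm in WT controls and 10.6 to 19.9 cpm in WT UV, and 5 of 8 fell in WT. The part of fibroblasts in the Itih5 values was not tested.

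Between the genotypes none of the 23 was called in controls by edgeR, with 1 at an unadjusted p under 0.05, and none by DESeq2. In UV 1 of the 23 was called, or 4.35% against 3.31% of all genes tested. It was Hexa, a subunit of the lysosomal hexosaminidase, which rose by 1.24 after UV in KO mice and had a value of -0.25 in WT that did not pass. The KO difference in UV was 1.58 (SE 0.37, adjusted P = 0.0222), and it was 0.88 and no longer called without 54F (adjusted P = 0.0815), and its rise in KO mice was then 0.57 (adjusted P = 0.0515). The call was also lost without 51F or 58M. In 54F Hexa was 69.3 cpm where the other irradiated KO mice had 3.07 to 13.5 cpm. None of the 23 passed in the genotype-by-UV interaction, where 0.765% of all genes did and DESeq2 called 1 of the 23. In it 6 of the 23 had an unadjusted p under 0.05, and so had 3042 of all 15546 genes.

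Of the 23, 2 were called between the sexes in controls, or 8.70% against 6.86% of all genes tested. Among them Hapln3 was higher in females by 1.32 on the log2 scale (SE 0.32, adjusted P = 0.0162). The 16 genes of the list that were not tested, among them Spam1, Tnfaip6 and Acan, had at most 20 reads in any mouse.

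**Figure D5:**
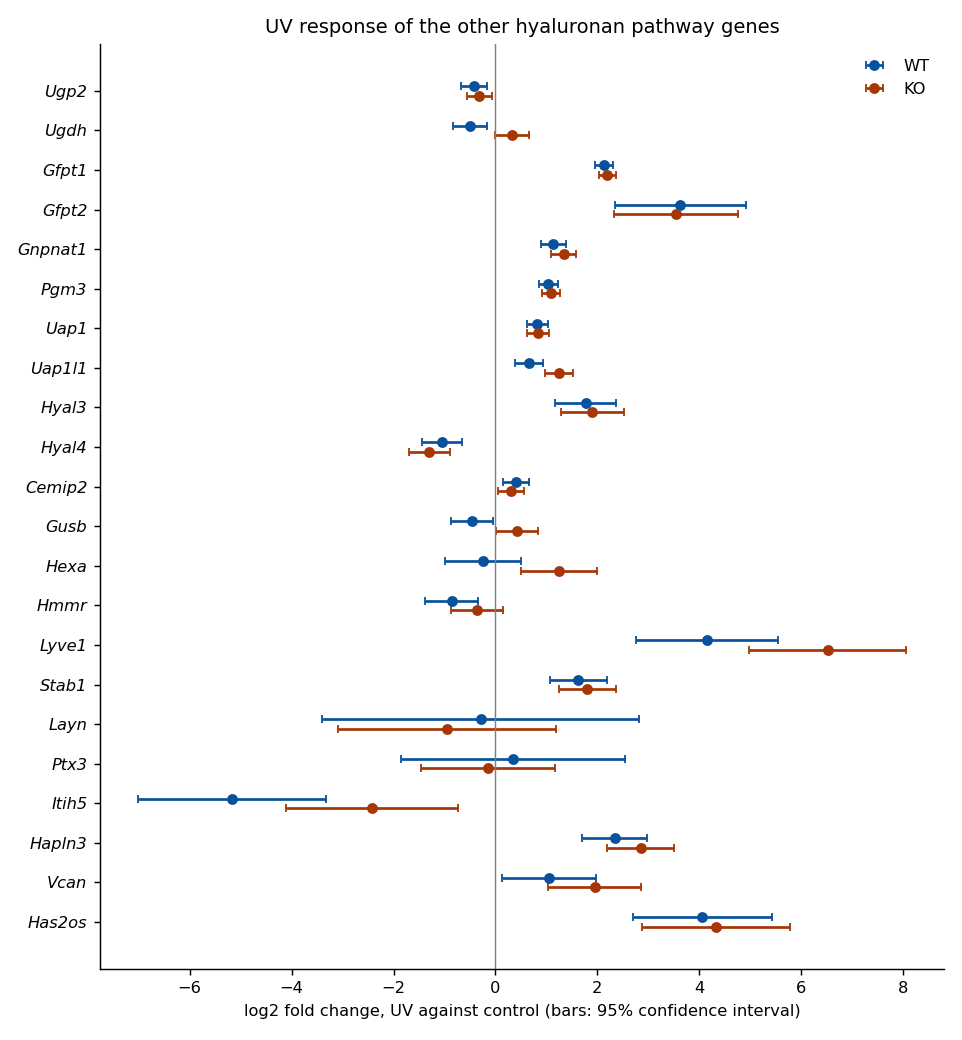
Log2 fold change of UV against control for 22 of the 23 tested genes of the wider pathway in WT (blue) and KO (brown) mice, with 95% confidence intervals. Gfpt1, Gnpnat1 and Pgm3 lie near 1 to 2 in both genotypes, Lyve1 reaches 6.52 in KO, and Itih5 lies at -5.17 in WT.

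Keratinocyte markers changed as well. All 7 suprabasal markers fell in both genotypes, from 65748 to 76576 cpm summed in WT controls to 11754 to 24842 cpm in WT UV, while basal markers summed to 7505 to 16674 and 17358 to 29953 cpm, with 3 of 7 higher and 2 lower in WT. Neutrophil markers went from 39.8 to 128 cpm to 673 to 1564 cpm in WT mice, and Ly6g had no reads in any control. All 7 T cell markers fell in both genotypes, from 20.2 to 134 cpm summed in WT controls to 19.2 to 53.2 cpm in WT UV. Langerhans cell markers fell too, 6 of 6 in WT and 5 of 6 in KO, from 668 to 1090 cpm to 361 to 445 cpm in WT mice. Of 5 endothelial markers 3 rose in each genotype, with at most 6.95 cpm summed in any irradiated WT mouse. Without 54F, 6 of 7 T cell markers fell and 2 of 5 endothelial markers rose in KO mice. No basal, suprabasal, fibroblast or macrophage marker was at 0 in every mouse of a group. The part of these shifts in the rise of the 7 genes was not tested.

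For each of the 6 genes that changed at least 2-fold with UV, the genes with the most similar profile over the 32 mice were found by the root mean square difference of their centred log2 cpm. Cd44 was nearest to Zfp326 (0.16), Plekhb2 (0.17) and Lima1 (0.17), and Hyal1 to Nbeal2 (0.20), Smurf1 (0.20) and Eme2 (0.21). Has3 was nearest to Tspan3 (0.48), Pi15 (0.48) and Smim3 (0.50), and Has2 to Odc1 (0.55), the first enzyme of polyamine synthesis, Sh2d5 (0.66) and Gm7993 (0.69). Cemip was nearest to Brca2 (0.52), 4732465J04Rik (0.54) and Cd24a (0.56).

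Has1 was nearest to Aqp3 (0.80), Urah (0.81) and Gm4755 (0.82). Its few reads in controls widen such distances, so they are not comparable with those of the other genes. Odc1 rose with UV by 5.46 in WT and 5.61 in KO on the log2 scale, close to the 5.23 and 6.03 of Has2. Because the UV step dominates the spread over mice, these lists name genes with a UV response of like size, in libraries that share their treatment.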

How the data were processed

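Epidermal RNA of 32 mice was sequenced (TruSeq Stranded mRNA, single reads). The authors trimmed reads with Cutadapt 1.8, removed ribosomal and low-complexity reads, aligned with STAR 2.5.3a and counted reads per gene with HTSeq 0.9.1, and deposited raw counts per gene for each mouse. The labels name GRCm38, the build used here for coordinates. RNA quality numbers were 6.4 to 8.4 per the labels, and the study's methods state a higher range.

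From these counts, a gene entered the tests if any 1 mouse reached 1 cpm. Libraries were scaled by TMM, and edgeR 4.0.16 (R 4.3.3) fitted 8 group means over all 32 mice. Contrasts averaged the sexes and were tested by quasi-likelihood, with Benjamini-Hochberg adjustment over 15546 genes and a call at 0.05. The fit was tested on simulated counts. DESeq2 1.42.0, limma 3.58.1, other scalings, filters and left-out mice were alternatives. The study's own statistics used limma-trend. Exon lengths and spans came from GENCODE M21, which held 55141 of the 55401 identifiers. Reads outside genes (6.8% to 9.75% unassigned, 1.28% to 1.56% ambiguous) were left out of library sizes.

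Values of all 7 genes are given for both UV comparisons and for KO against WT in controls and in UV. For the interaction and sex comparisons the count called is given, with values for some of the 7. Also named were Ppard, the 3 nearest genes by profile, and other pathway genes by call. These were called with a 2-fold change in UV, or called in a genotype or interaction comparison. The members and lists were chosen with earlier results of these data known. Results for 1 gene of the pathway list are not reported here.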

Additional observations from a re-analysis of the deposited data

Results flagged for a closer look

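The UV response of Hyal1 differed between KO and WT mice by -0.754 on the log2 scale in the genotype-by-UV interaction (adjusted P = 0.00735, edgeR), which compares its rise in both genotypes directly. The response was 1.52 in WT and 0.76 in KO mice.

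Within single groups of 4 mice, 2 of 56 groups held a mouse far from the others, where chance gives about 1 in 20. Hyal1 was 27.96 cpm in the WT control female 63F, while the other 3 read 24.0 to 24.6 cpm. Cemip was 143.7 cpm in the UV-exposed KO male 59M, with the next male at 74.3 cpm. Without 59M the Cemip response to UV in KO mice was 1.45 on the log2 scale, and without 60F it was 1.92.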

How the results depend on the processing

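All 7 genes were called higher after UV in both genotypes under each alternative scaling, tool and filter and without any single mouse. The exception was Has1 in KO mice of 1 sex, with 1.16 in males (adjusted P = 0.0556) and 1.54 in females (adjusted P = 0.0529). Without any single mouse the Hyal1 difference in UV stayed between -0.62 and -0.50 and its interaction between -0.82 and -0.68, and both stayed called. In males alone 0 of 7 genes were called between the genotypes in UV (Hyal1 -0.62, adjusted P = 0.207), and with the 16 mice of 1 sex 0 of 7 were called in the interaction (Hyal1 -0.86 in males, adjusted P = 0.378, and -0.72 in females, adjusted P = 0.14), where fewer mice were fitted. In KO against WT controls 1 of 7 was called by DESeq2 and without the 9 mice over 1000 cpm of muscle markers (Has1, 2.75, adjusted P = 0.0352), an alternative chosen after seeing the data, and 0 to 1 without single mice.

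Pathway genes called between the genotypes in UV numbered 4 by DESeq2, 7 in females, and 0 by limma-trend, in males, in the fit of only the 16 mice and without the 9 mice, with a range of 0 to 4 without single mice. In the interaction DESeq2 called 1 and single mice gave 0 to 2, and in the genotype-by-sex comparison DESeq2 called 1. Between the sexes in controls 1 was called with filterByExpr, with no filter, in the fit of 16 mice and without the 9 mice, and 1 to 3 without single mice. The cause of these shifts was not tested.

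Some values that had not passed changed sign. The Has3 difference in controls was -0.0096 with library size only and -0.19 with limma-trend, and ran from -0.36 to 0.23 without single mice. The Cd44 interaction was 0.056 with library size only, 0.022 with limma-trend and 0.021 in males, and ran from -0.12 to 0.12. The Has2 difference in UV ran from -0.047 to 0.16 and that of Hyal3 from -0.46 to 0.0018. In males alone Cemip differed between the genotypes by 0.44 in controls and 0.13 in UV, and Ugdh changed by -0.025 with UV in KO. Itih5 in KO, called with all mice, changed by 1.17 with UV in females alone (adjusted P = 0.459), the group that holds 54F. No paired analysis was possible because the numbers in the labels name single mice of 1 group each: where females and males share a number they are different animals, and the replicate numbers used here follow the order of the samples. Has1, Has2os and Gfpt2 are limited by depth in controls, and the P-values weigh each difference against the spread between single mice.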
